A study of Zea mays with 6 samples.

Results

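The circadian clock genes described here are 7 maize genes, chosen by identifier from a list of clock and clock-output genes: cca1, lhy1, 2 copies of toc1, gi1, gi2 and conz1. All 7 are among the 31470 genes listed in the deposited files, and 5 of them passed the abundance filter (at least 1 FPKM in at least 3 libraries) that left 18984 genes for testing. The names follow that list, since the files carry identifiers only. A gene table of a newer maize assembly (RefSeq, Zm-B73-REFERENCE-NAM) holds the names of gi1, gi2 and conz1 on chromosomes 8, 3 and 9, which are the chromosomes of the listed genes, and has no match for cca1, lhy1 or toc1.

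RNA of mature anthers of the maize inbred line B104 was sequenced in 3 libraries from plants labelled ZmCOI2a-/-,ZmCOI2b-/- (the double mutant) and in 3 libraries from wild-type plants. COI proteins are receptors for the hormone jasmonate, and the series concerns anther opening and male fertility. Both groups share the line, the tissue and the stage. The labels do not say how the mutations were made, whether each library is from a different plant, or at which hour anthers were collected. A p-value here therefore sets the genotype difference only against the scatter among these libraries, which may be technical.

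The plant clock is a loop of transcription factors whose parts peak at opposite ends of the day. In Arabidopsis, the MYB factors CCA1 and LHY accumulate around dawn and repress evening genes such as TOC1 and GIGANTEA, and TOC1 in turn represses CCA1 and LHY. GIGANTEA also acts on CONSTANS, the output gene of the day-length pathway to flowering, of which conz1 is a maize relative. Levels of such genes in a tissue can therefore depend on the hour of sampling.

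Library depth was similar, between 16845656 and 17759978 counted reads. On the first principal component of all tested genes, which held 52.8% of the variance, mutant replicate 3 lay at -21.9, against -42.9 and -46.3 for mutant replicates 1 and 2 and 24.3 to 45.8 for the wild-type libraries. Wild-type replicate 3 lay at 47.3 on the second component (25.8% of the variance), against -37.1 for wild-type replicate 2 and -9.24 for wild-type replicate 1. The identifiers are not paired with names, so neither anther markers nor the 2 mutated genes are analysed here.

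The morning gene cca1 fell 7.76-fold in the double mutant, by the means of the FPKM values, and its morning partner lhy1 was lower in each mutant library as well but did not pass the test. The evening genes gi1, gi2 and toc1 and the output gene conz1 did not pass the test, with log2 fold changes between -0.26 and -0.05. Of the 5 tested genes, 1 was called (cca1, lower in the mutant), where 4.75% of all tested genes were called lower and 6.65% were called in either direction (limma, Benjamini-Hochberg adjusted p under 0.05). The background depends on scaling: 901 genes were called lower and 361 higher for unscaled FPKM, against 410 lower and 661 higher after median-of-ratios scaling. The log2 fold changes of the 5 tested clock genes had a median of -0.24, beside -0.20 for all tested genes. That median leaves out lhy1 and the chromosome 4 toc1 copy, which lay below the filter.

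Zm00001d049543 (cca1, chromosome 4, 34070590 to 34104400 on B73 RefGen_v4, plus strand) encodes the morning MYB factor. It had 1.25, 1.34 and 4.16 FPKM (fragments counted on a gene, divided by its length in kilobases and by library depth) in mutant replicates 1, 2 and 3, against 13.0, 12.6 and 26.8 FPKM in wild-type replicates 1, 2 and 3. The genotypes did not overlap, the lowest wild-type library stood 3.03-fold above the highest mutant library, and replicate 3 was the highest of its genotype on both sides. Mutant libraries averaged 2.25 ± 1.65 FPKM and wild-type libraries 17.5 ± 8.09 FPKM (SD, n = 3 each). On the log2(FPKM + 1) scale, which understates changes of low genes, the log2 fold change was -2.54 (SE 0.39, 95% interval -3.43 to -1.64, limma adjusted p = 0.0181).

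Relative to the median of all tested genes, that is -2.34 log2 units, and 21 of 18984 tested genes, cca1 included, had a log2 fold change as low or lower. The rank within a library does not depend on scaling. Among all listed genes, cca1 stood at percentiles 45.0, 47.8 and 65.0 in mutant replicates 1 to 3, against percentiles 82.3, 81.2 and 88.5 in wild-type replicates 1 to 3. With median-of-ratios scaling, which moved the median of all tested genes to 0.03, its log2 fold change was -2.31 (limma adjusted p = 0.0147). The call was lost without mutant replicate 1 (log2 fold change -2.33, limma adjusted p = 0.0704) and without mutant replicate 2 (-2.35, limma adjusted p = 0.0881). It was also lost with no filter on low values (limma adjusted p = 0.0509), where 0.93% of all listed genes were called, against 6.65% with the filter. Over all tested genes, 54 and 50 genes were called in the fits without mutant replicate 1 and without mutant replicate 2, against 1262 with all 6 libraries.

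In bulk anthers, fewer cells that express a gene and less RNA per cell cannot be told apart. The hour of collection is not labelled, so whether it differed between the genotypes or among the libraries was not tested.

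**Figure D1:**
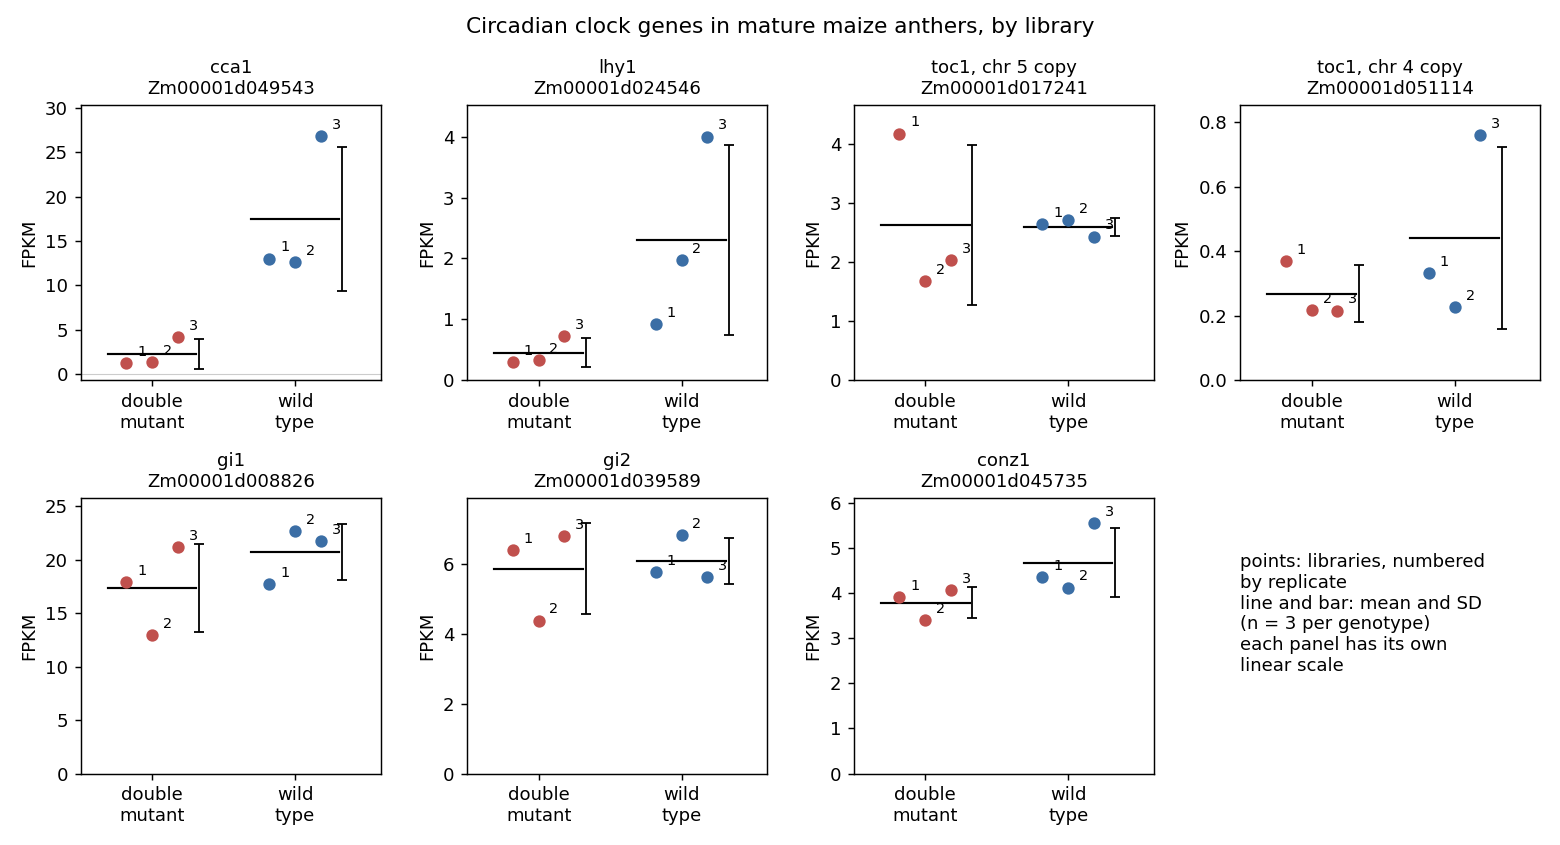
FPKM of each clock gene in the 3 double mutant (left) and 3 wild-type (right) libraries, numbered by replicate, with mean and SD, each panel on its own linear axis. For cca1 the mutant libraries lie at 1.25 to 4.16 FPKM, all under the wild-type libraries at 12.6 to 26.8 FPKM, whereas for gi1, gi2 and both toc1 copies the genotypes overlap.

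Zm00001d024546 (lhy1, chromosome 10, 77700138 to 77703390, minus strand) encodes the second morning MYB factor. It was weakly expressed, at 0.303, 0.328 and 0.724 FPKM in mutant replicates 1 to 3, against 0.924, 1.97 and 3.999 FPKM in wild-type replicates 1 to 3. These values stand for 12, 13 and 29 reads in the mutant and 36, 75 and 159 reads in wild type. The genotypes did not overlap, but the lowest wild-type library was only 1.28-fold above the highest mutant library. As with cca1, replicate 3 was the highest of each genotype.

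Mutant libraries averaged 0.452 ± 0.236 FPKM of lhy1 and wild-type libraries 2.30 ± 1.56 FPKM (SD, n = 3 each), a 5.09-fold difference. It reached 1 FPKM in fewer than 3 libraries and so lay below the filter. Fitted without a filter, its log2 fold change was -1.09 (SE 0.34, 95% interval -1.90 to -0.28, limma adjusted p = 0.135), and limma-voom on its reads gave -2.19 (adjusted p = 0.0685). Without wild-type replicate 3 the unfiltered value was -0.73 (limma adjusted p = 0.204). The summed reads gave a mutant to wild-type ratio of 0.196 (95% counting interval 0.143 to 0.263), an interval that covers counting error only and not the spread between libraries.

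For the evening genes, the genotypes overlapped. Zm00001d008826 (gi1, chromosome 8, 21787238 to 21795721, minus strand) is a GIGANTEA homologue. It had 17.9, 13.0 and 21.2 FPKM in mutant replicates 1 to 3, against 17.7, 22.7 and 21.7 FPKM in wild-type replicates 1 to 3. Mutant replicate 2 was the lowest library and wild-type replicate 2 the highest, with the other libraries between them. The log2 fold change was -0.26 (SE 0.21, 95% interval -0.74 to 0.22, limma adjusted p = 0.437), and 0.0041 with median-of-ratios scaling.

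Zm00001d039589 (gi2, chromosome 3, 8521898 to 8533430, plus strand) is the second GIGANTEA homologue. It had 6.40, 4.37 and 6.80 FPKM in mutant replicates 1 to 3, against 5.76, 6.82 and 5.62 FPKM in wild-type replicates 1 to 3. Its highest and lowest libraries were the same ones as for gi1, wild-type replicate 2 and mutant replicate 2. The log2 fold change was -0.06 (SE 0.19, 95% interval -0.50 to 0.39, limma adjusted p = 0.863), and its sign turned with median-of-ratios scaling (0.18).

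Zm00001d017241, the toc1 copy on chromosome 5 (190060998 to 190063941, plus strand), encodes a pseudo-response regulator that represses the morning genes in Arabidopsis. It had 4.17, 1.67 and 2.03 FPKM in mutant replicates 1 to 3, against 2.64, 2.71 and 2.43 FPKM in wild-type replicates 1 to 3. The mutant libraries lay on both sides of the narrow wild-type range, with mutant replicate 1 the highest of all. Mutant libraries averaged 2.63 ± 1.35 FPKM and wild-type libraries 2.59 ± 0.145 FPKM (SD, n = 3 each). The log2 fold change was -0.05 (SE 0.25, 95% interval -0.62 to 0.53, limma adjusted p = 0.916), and 0.15 with median-of-ratios scaling.

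Zm00001d051114, the toc1 copy on chromosome 4 (143867613 to 143870730, plus strand), had the lowest mean FPKM of the set in both genotypes, although in mutant replicate 1 it was above lhy1. It had 17, 10 and 10 reads in mutant replicates 1 to 3 (0.370, 0.218 and 0.216 FPKM), against 15, 10 and 35 reads in wild-type replicates 1 to 3 (0.332, 0.227 and 0.760 FPKM). Wild-type replicate 3 stood above the other 5 libraries, which held 10 to 17 reads. Below the filter, it had a log2 fold change of -0.17 without one (SE 0.14, 95% interval -0.50 to 0.17, limma adjusted p = 0.521).

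Zm00001d045735 (conz1, chromosome 9, 36009335 to 36013889, plus strand) is the CONSTANS-like output gene. It had 3.90, 3.39 and 4.07 FPKM in mutant replicates 1 to 3, against 4.35, 4.12 and 5.55 FPKM in wild-type replicates 1 to 3. The genotypes did not overlap, by a factor of 1.01, and with median-of-ratios or upper-quartile scaling they did. The log2 fold change was -0.24 (SE 0.17, 95% interval -0.63 to 0.15, limma adjusted p = 0.379), close to the median of all tested genes.

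Every mutant library lay below every wild-type library for 3 of the 7 genes (cca1, lhy1 and conz1), where 28.6% of all tested genes did so. With median-of-ratios scaling 2 of 7 remained (cca1 and lhy1), beside 14.0% of tested genes, and with upper-quartile scaling the same 2 of 7, beside 18.6%. The bases differ, since the 7 include lhy1 and the chromosome 4 toc1 copy, which lay below the filter. Among the 5 tested clock genes, those below were cca1 and conz1 for unscaled FPKM, and cca1 only after either scaling. The opposite order, all mutant values above the highest wild-type value, was found in 0 of 7 clock genes under each of these 3 scalings, beside 7.27% of tested genes for the FPKM values unscaled, 16.7% after median-of-ratios scaling and 12.3% after upper-quartile scaling. Of the 5421 tested genes without overlap in the direction of cca1, 69 (1.27%) had a gap at least as wide as the 3.03-fold gap of cca1, and the median gap was 1.18-fold.

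**Figure D2:**
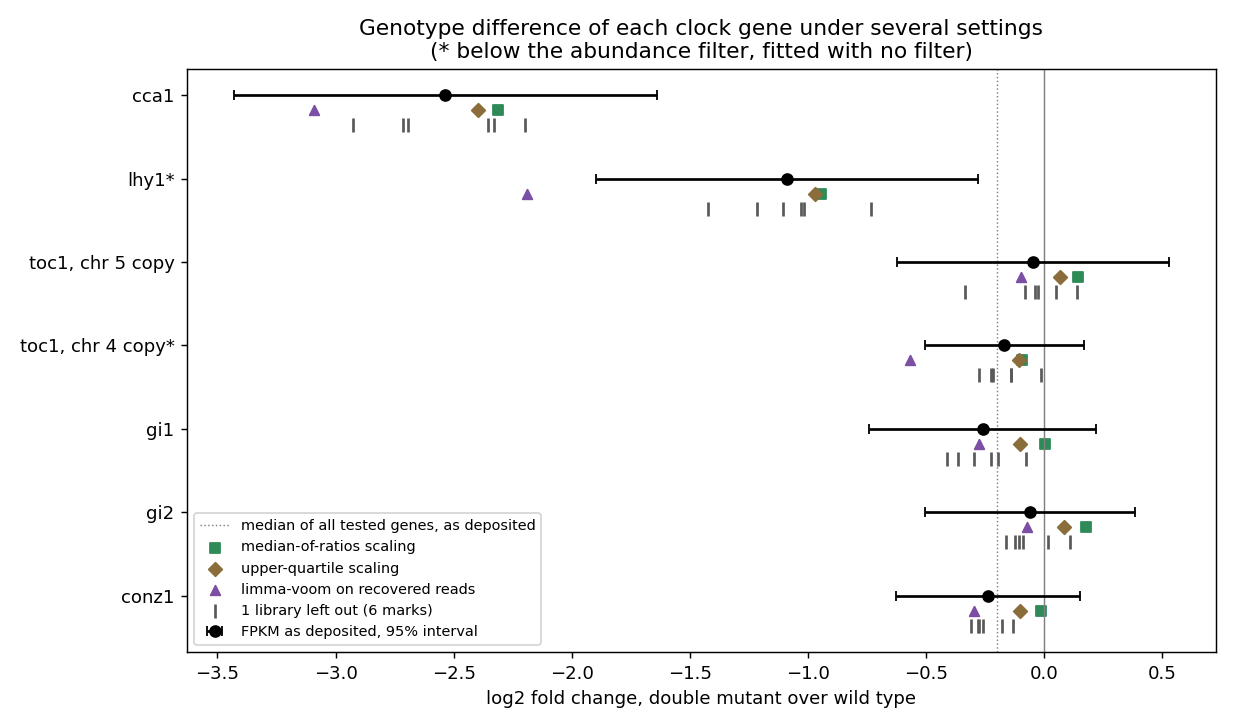
Log2 fold change of the double mutant over wild type for each clock gene: FPKM as deposited with its 95% interval (black), other scalings and limma-voom (coloured marks) and each of the 6 libraries left out in turn (ticks). The cca1 values run from -3.09 to -2.20, whereas the marks of gi1, gi2, conz1 and the chromosome 5 toc1 copy lie between -0.41 and 0.18. Fitted with no filter, lhy1 runs from -2.19 to -0.73 and the chromosome 4 toc1 copy from -0.57 to -0.015.

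By mean FPKM, a level per gene length, the order of the genes in the mutant was gi1 (17.4 ± 4.13), gi2 (5.86 ± 1.30), conz1 (3.79 ± 0.353), toc1 on chromosome 5 (2.63 ± 1.35), cca1 (2.25 ± 1.65), lhy1 (0.452 ± 0.236) and toc1 on chromosome 4 (0.268 ± 0.0885). In wild type the order was gi1 (20.7 ± 2.62), cca1 (17.5 ± 8.09), gi2 (6.07 ± 0.657), conz1 (4.67 ± 0.765), toc1 on chromosome 5 (2.59 ± 0.145), lhy1 (2.30 ± 1.56) and toc1 on chromosome 4 (0.440 ± 0.282), with SD over 3 libraries in each case. Apart from cca1, which stood lower in the mutant order, the other 6 genes kept their order. Neighbours whose ranges of mean ± SD overlapped were conz1 and toc1 on chromosome 5, toc1 on chromosome 5 and cca1, cca1 and lhy1, and lhy1 and toc1 on chromosome 4 in the mutant, and gi1 and cca1, gi2 and conz1, and toc1 on chromosome 5 and lhy1 in wild type.

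A comparison of genes within a library depends little on scaling. The difference between the morning genes (mean log2(FPKM + 1) of cca1 and lhy1) and the evening genes (mean of both toc1 copies, gi1 and gi2) was -1.71, -1.16 and -0.75 in mutant replicates 1 to 3, against 0.06, 0.24 and 1.10 in wild-type replicates 1 to 3. Each mutant library lay below each wild-type library. The sign of a single value is not read as one set of genes exceeding the other, since its zero depends on the added 1 FPKM and on the weak genes in each mean. Mutant libraries averaged -1.21 ± 0.48 and wild-type libraries 0.47 ± 0.56 (SD, n = 3 each), a difference of -1.68. As a score over chosen genes it was given no test. It mostly restates the lower values of cca1 and lhy1 given above, since the evening genes differed by only -0.13 on average.

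Averaged over the genes of each arm, the mutant minus wild-type difference of log2(FPKM + 1) was -1.81 for the morning genes and -0.13 for the evening genes. The ratio of cca1 to gi1, in FPKM, was 0.0700, 0.103 and 0.196 in mutant replicates 1 to 3, against 0.733, 0.556 and 1.23 in wild-type replicates 1 to 3. The ratio of cca1 to the chromosome 5 toc1 copy was 0.300, 0.802 and 2.04 in the mutant libraries, against 4.93, 4.65 and 11.0 in the wild-type libraries. In neither ratio did the genotypes overlap, and in both ratios replicate 3 was the highest library of each genotype. Both features were already present in cca1 alone, so the ratios restate its values and are no separate result. Whether the change of cca1 differs from that of gi1 or toc1 was not tested beyond these ratios.

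The homologous copies were used unequally. How alike their sequences are was not analysed, and reads that fit both copies may have been misassigned or not counted. The share of lhy1 in the summed FPKM of cca1 and lhy1 was 19.4%, 19.7% and 14.8% in mutant replicates 1 to 3, against 6.63%, 13.5% and 13.0% in wild-type replicates 1 to 3. Each mutant library was above each wild-type library, which on the log2(FPKM + 1) scale gave a cca1 to lhy1 difference of 1.06 ± 0.45 for mutant and 2.51 ± 0.34 for wild-type libraries (SD, n = 3 each). The difference between the genotypes, -1.45, shrank to -0.91 when computed on reads per length, since the added 1 FPKM weighs on lhy1. The mutant shares rest on 12, 13 and 29 lhy1 reads.

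The share of gi2 in the summed FPKM of gi1 and gi2 was steady, at 26.3%, 25.2% and 24.3% in mutant replicates 1 to 3, against 24.5%, 23.1% and 20.6% in wild-type replicates 1 to 3. The chromosome 4 copy made up 8.15%, 11.5% and 9.59% of toc1 FPKM in mutant replicates 1 to 3, against 11.2%, 7.75% and 23.8% in wild-type replicates 1 to 3. Both shares overlapped between genotypes, and the highest toc1 share, in wild-type replicate 3, came from the library with 35 reads of that copy.

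**Figure D3:**
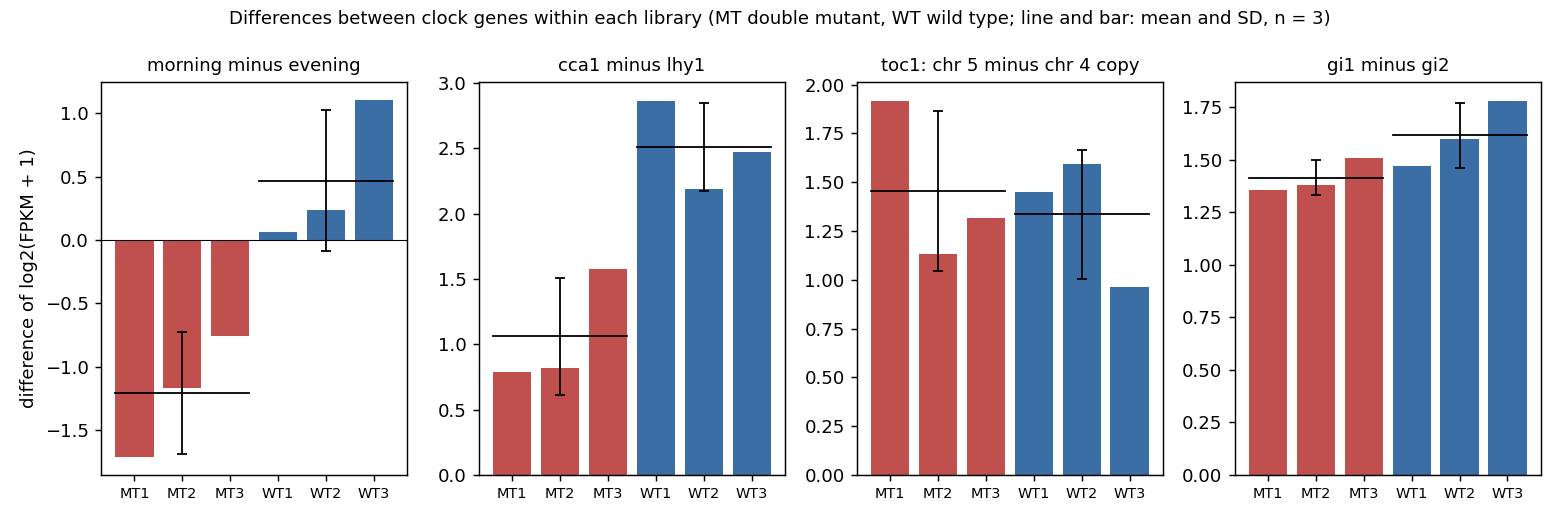
Differences of log2(FPKM + 1) between clock genes within each library, with bars for libraries (double mutant MT, left, wild type WT, right) and lines and error bars for mean and SD. The morning minus evening difference is -1.71 to -0.75 in the mutant and 0.06 to 1.10 in wild type, whereas the toc1 and gi pairs overlap between genotypes.

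Libraries of the same genotype also differed from each other in their clock genes. For cca1, mutant replicate 3 had 3.32 times the level of mutant replicate 1 (95% counting interval 2.61 to 4.25) and 3.10 times that of mutant replicate 2 (2.45 to 3.95), while mutant replicates 1 and 2 differed by less than counting error (1.07, 0.792 to 1.44). Only 1.96% and 1.79% of tested genes were as far apart in these 2 pairs. Wild-type replicate 3 had 2.06 times the cca1 of wild-type replicate 1 (1.90 to 2.23) and 2.13 times that of wild-type replicate 2 (1.96 to 2.31), distances reached by 9.86% and 13.3% of tested genes. These ratios compare libraries and not conditions.

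For lhy1, 5 of 6 pairs of libraries of one genotype differed beyond counting error, by up to 4.33-fold between wild-type replicates 3 and 1 (95% counting interval 2.999 to 6.40). The chromosome 5 toc1 copy was even across wild type, with ratios of 1.03 to 1.11, each within counting error. In the mutant, replicate 1 had 2.50 times the toc1 level of replicate 2 (1.90 to 3.31) and 2.05 times that of replicate 3 (1.59 to 2.67), and 2.62% and 6.86% of tested genes were as far apart. Within the mutant, the library highest in cca1 (replicate 3) was thus not the one highest in toc1 (replicate 1). The ratio was at most 1.63 for gi1, 1.56 for gi2 and 1.35 for conz1 in any such pair.

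Mutant replicate 3 stood nearer to wild type in many genes, not in cca1 alone. Of the 901 genes called lower in the mutant, 520 (57.7%) had replicate 3 as the highest mutant library, 547 (60.7%) had replicate 3 as the highest wild-type library, and 318 (35.3%) had both. These genes were selected on the same data. The shares over all tested genes and over the 361 genes called higher are not given here, so no joint pattern of the 2 libraries is read from them. On the log2(FPKM + 1) scale, mutant replicate 3 lay 39.9% of the way from mutant replicates 1 and 2 to the wild-type mean for cca1 and 32.1% for lhy1, where the median of the called genes was 15.8% (quartiles -1.06% and 31.4%). Without mutant replicate 3 the log2 fold change of cca1 was -2.92 (limma adjusted p = 0.0125).

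The spread within and between genotypes separates the genes. For cca1, 85.8% of the sum of squares over the 6 libraries lay between genotypes, beside a median of 36.9% for all tested genes (percentile 93.7), and its SD within genotypes, 0.63 on the log2 scale, was also high (percentile 96.0, median 0.24). The chromosome 5 toc1 copy was the opposite case, with 0.656% between genotypes and an SD of 0.51 within the mutant (percentile 94.3) and 0.059 within wild type (percentile 4.47). For gi1, gi2 and conz1 the share between genotypes was 25.7%, 2.47% and 47.5%, with SDs within genotypes of 0.27, 0.23 and 0.15 (percentiles 57.5, 44.1 and 19.7). Among the 5 tested genes, cca1 therefore had both the largest genotype difference and the largest differences between libraries of one genotype.

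**Figure D4:**
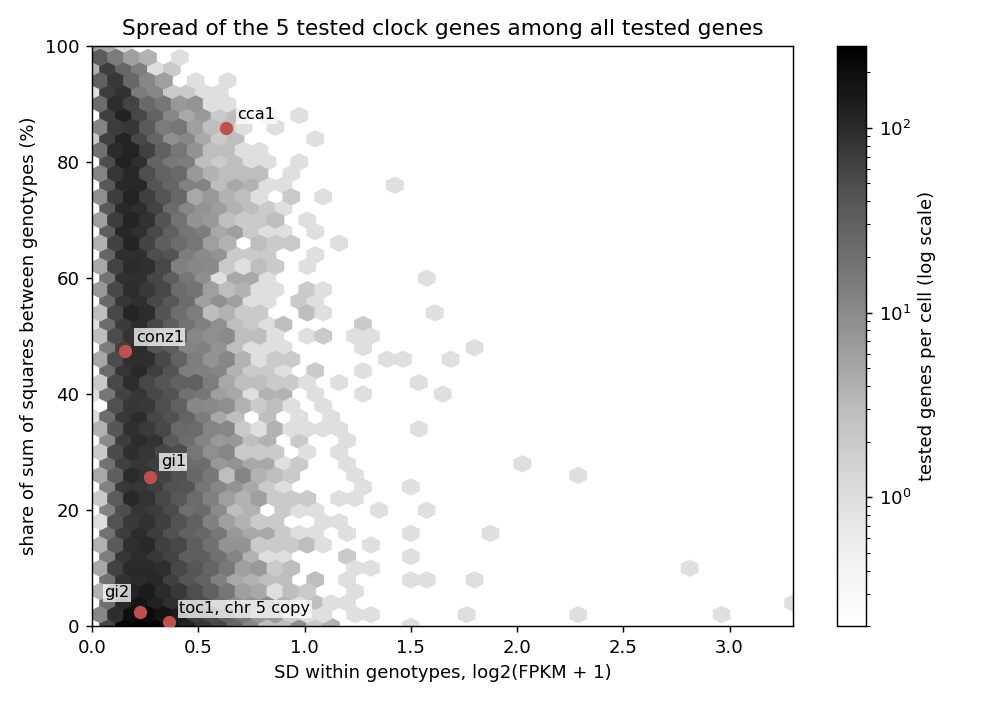
Share of the sum of squares of log2(FPKM + 1) that lies between genotypes (vertical, %) against the SD within genotypes (horizontal), for all 18984 tested genes (grey, log-scaled density) and the 5 tested clock genes (red). The point for cca1 is at 0.63 and 85.8%, whereas the chromosome 5 toc1 copy and gi2 lie at 0.656% and 2.47%.

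Other genes followed the same course over the 6 libraries, and they are given by identifier because the files do not name them. Of 18979 other tested genes, those most like cca1 by Pearson's r of log2(FPKM + 1) were Zm00001d053378 (chromosome 4, 228397961 to 228399787, r = 0.997) and Zm00001d017607 (chromosome 5, 201445239 to 201460140, r = 0.997). Zm00001d053378 had 10.7, 11.3 and 15.0 FPKM in mutant replicates 1 to 3, against 21.3, 20.0 and 25.6 FPKM in wild-type replicates 1 to 3 (log2 fold change -0.81, limma adjusted p = 0.0433). In all, 728 genes reached an r of at least 0.95 with cca1, 109 with gi1 and 7 with the chromosome 5 toc1 copy. Genotype and depth vary over the 6 libraries alike for every gene, so a genotype difference in both genes can alone raise r.

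Most like gi1 were Zm00001d018567 (chromosome 5, 223333291 to 223334508, r = 0.994) and Zm00001d007835 (chromosome 2, 240560575 to 240564186, r = 0.993). Most like the chromosome 5 toc1 copy were Zm00001d023813 (chromosome 10, 22948296 to 22951424, r = 0.979) and Zm00001d021245 (chromosome 7, 146809739 to 146813458, r = 0.958). None of these 4 genes was called between genotypes (limma adjusted p from 0.325 to 0.971). They were picked for their likeness to gi1 and toc1, which were not called either, so this is no separate result.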

How the data were processed

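Each of the 6 deposited files gives 1 FPKM value per gene with its position. The deposited values themselves show a count per gene length and library depth, since value times a whole-number gene length steps in whole counts. These steps do not tell fragments from reads, and the counts are called reads here. Tools named in the submitters' processing notes are Bowtie2 2.2.3, HISAT2 2.1.0 and HTSeq 0.6.0, with the build B73 RefGen_v4 and no roles. Of strand setting and annotation release, nothing is given in the sources used here.

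Library totals and whole reads were recovered from the FPKM of the authors (31465 of 31470 genes, within 0.0001 reads plus 3e-09 per read). For a gene of 1 kb, 1 read amounts to 0.0563 to 0.0594 FPKM. No other listed gene overlaps a clock gene. The genotype test was limma 3.58.1 (R 4.3.3), two-sided and with a trend on intensity, run over the 6 libraries on log2(FPKM + 1) for the 18984 genes with at least 1 FPKM in at least 3 libraries. A gene was called at a Benjamini-Hochberg adjusted p under 0.05 over all tested genes. Ratios between libraries carry exact binomial 95% intervals, which cover counting error only. The fit was also run on simulated reads with known fold changes, and the outcome is not reported here. That simulation gave every gene the same relative scatter beyond counting error and held no outlying library.

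The clock genes and all lists were chosen with earlier results of these data known. The rule for named genes took all 7 clock genes and the 2 genes most like cca1, gi1 and the chromosome 5 toc1 copy. A list of 22 other clock-related symbols and a list of 19 tissue markers had 0 genes that could be matched to the identifiers, and promoter motifs and protein identity were not analysed for lack of sequences. Alternatives were other scalings, pseudocounts and filters, limma-voom, a stricter threshold, a replicate block and each library left out.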

Additional observations from a re-analysis of the deposited data

How the results depend on the processing

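Against 1 clock gene called (cca1), 0 were called with no filter (limma adjusted p of cca1 = 0.0509) and at an adjusted p under 0.01, and leaving out 1 library gave 0 to 1 (0 without mutant replicate 1 or 2). Of all genes, 6.65% were called with the filter and 0.93% with none, and 0.28% and 0.26% without mutant replicates 1 and 2. The share at an adjusted p under 0.01 is not given here. With no filter, 2 of 7 clock genes had an unadjusted limma p under 0.05, beside 22.2% of all genes, and without mutant replicate 1 or 2 it was 1 of 5, beside 21.2% and 18.4%. Of 12 alternatives run with no filter, chosen after seeing the data, 5 called cca1: median-of-ratios (adjusted p = 0.0482) and upper-quartile scaling (0.0440), pseudocounts of 0.1 (0.0401) and 0.5 (0.0483), and limma-voom (0.00695), which called 1.39%, 1.35%, 1.56%, 1.14% and 4.39% of all genes. The other 7, the replicate block (0.116) and the 6 without 1 library (0.0862 to 0.228), did not. Of all 31470 genes, the fit without wild-type replicate 3 called 5, and the rest of these 7 called 0. The log2 fold change of cca1 ran from -3.09 to -2.20 over 15 alternatives with 1 choice changed and its adjusted p from 0.00543 to 0.0881. The sign of genes not called turned as follows. With median-of-ratios scaling the chromosome 5 toc1 copy was at 0.15, gi1 at 0.0041 and gi2 at 0.18, and with upper-quartile scaling toc1 was at 0.068 and gi2 at 0.084. Without 1 library, toc1 ran from -0.33 to 0.14 and gi2 from -0.16 to 0.11. These scalings moved the median of all genes from -0.20 to 0.03 and -0.06. The morning minus evening difference of -1.68 was -2.28 with a pseudocount of 0.1 and -2.39 on reads, and the cca1 to lhy1 difference of -1.45 was -1.05 and -0.91. Smaller pseudocounts compress lhy1 less. The replicate block gave cca1 an adjusted p of 0.00543 with the filter and changed no call of a clock gene there, while 715 genes were called in all. Deviations from the group means correlated at 0.01, -0.38 and -0.33 between libraries of the same number, so the numbers were not taken as pairs. The alternatives of lhy1 and the chromosome 4 toc1 copy were all run with no filter, also chosen after seeing the data, and none called them. Mutant libraries held 10 to 29 reads of these 2 genes, which limits the precision of each value, and for lhy1 5 of 6 pairs of libraries of one genotype also differed beyond counting error.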
